A study of Mus musculus with 6 samples.

Results

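Collagen genes were taken as all protein-coding mouse genes whose symbol has the form Col, a number, a and a number, which gave 44 of 21887 protein-coding genes. For each, the accessible intervals overlapping the gene body with 20 kb on each side (its window) were collected from an ATAC-seq experiment. In ATAC-seq a transposase inserts adapters into open DNA, so that reads gather at accessible sites. The cells were mouse embryonic fibroblasts heterozygous for both alleles of the cross M2-rtTA x TetO-Myf6, in which doxycycline switches on the muscle regulator Myf6. All cells stood for 24 h in iMPC medium with 10 ng/mL bFGF, in 3 groups of 2 libraries. Myf6 with F/R/C had doxycycline (2 µg/mL) and the compounds forskolin (5 µM), RepSox (5 µM) and CHIR99021 (3 µM), the Myf6 group had doxycycline (2 µg/mL) only, and the medium group had none of these. Forskolin raises cyclic AMP, RepSox inhibits TGF-beta receptor signalling and CHIR99021 inhibits the kinase GSK3. The labels name neither the promoter driving M2-rtTA nor separate cultures for the libraries within a group.

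Groups were set up to compare accessibility with Myf6 alone and with the 3 compounds added. The table used here holds 323483 intervals joined over the experiment, without a value for any library or group, so differences between the groups were not analysed here. Each interval marks a place with a called peak. In which library or libraries, or in which pool of libraries, is not told. The depth is unknown and replicate errors cannot be given. Marker genes were checked for an interval within 1 kb of the start site, or of either gene end where no start is listed. Such an interval was found at 8 of 8 fibroblast marker genes, 3 of them collagens, against 72.7% of all protein-coding genes. It was found at 5 of 6 epithelial, 3 of 6 endothelial and 2 of 6 macrophage and blood markers. The macrophage marker Adgre1 had no interval in its whole window, and whether the intervals are complete there could not be checked.

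Collagens are triple helices of chains built from a short repeat with glycine, and fibroblasts are their main source in connective tissue. Fibrillar collagens form the banded fibrils of skin, bone, tendon and cartilage. Type IV collagens form the sheet of basement membranes, the network collagens of types VIII and X form lattices, and transmembrane collagens sit in the cell membrane. The remaining members are FACITs (fibril-associated collagens with interrupted helices), the type VI chains of beaded filaments, the multiplexins of types XV and XVIII, the anchoring fibril collagen of type VII, and Col26a1 and Col28a1.

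Promoter sequences from RefSeq (GRCm38.p6) were matched to 35 of the 44 genes, with 38 start sites. Shown are the 250 bases before the start, 5′ to 3′ on the gene's strand, with CCAAT boxes (CCAAT or ATTGG), GC boxes (GGGCGG or CCGCCC) and TATA motifs (TATAAA or TTTATA) in capitals. For the fibrillar class, Col11a1 is shown because it had the widest interval at a start site of the 38, and Col1a2 and Col3a1 because they encode chains of the main fibrils of connective tissue.
Col11a1: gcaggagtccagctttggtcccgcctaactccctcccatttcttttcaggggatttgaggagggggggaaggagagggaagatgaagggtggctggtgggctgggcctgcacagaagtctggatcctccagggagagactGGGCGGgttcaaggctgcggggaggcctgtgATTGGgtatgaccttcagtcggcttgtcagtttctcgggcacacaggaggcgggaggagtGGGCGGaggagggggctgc
Col1a2: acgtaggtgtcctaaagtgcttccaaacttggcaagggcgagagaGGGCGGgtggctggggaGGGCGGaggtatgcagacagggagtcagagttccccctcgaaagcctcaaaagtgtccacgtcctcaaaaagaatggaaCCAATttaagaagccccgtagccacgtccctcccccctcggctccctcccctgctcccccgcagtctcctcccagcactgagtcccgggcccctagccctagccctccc
Col3a1: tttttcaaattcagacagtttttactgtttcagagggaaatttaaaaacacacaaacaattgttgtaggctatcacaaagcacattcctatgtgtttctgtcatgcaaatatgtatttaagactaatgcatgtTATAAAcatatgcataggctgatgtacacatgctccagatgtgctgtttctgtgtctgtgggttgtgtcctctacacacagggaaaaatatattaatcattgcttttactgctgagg
These lie on the plus strand at chr3:114030290-114030539, chr6:4505368-4505617 and chr1:45311288-45311537. The Col1a2 stretch held 2 GC boxes and 1 CCAAT box, that of Col11a1 had the same counts, and that of Col3a1 held a TATA motif and no CpG dinucleotide.

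The widest and the narrowest start-site intervals of the network class belonged to Col8a2 and Col10a1. Those of the transmembrane class belonged to Col25a1 and Col17a1. A gene's start-site interval is here the widest within 1 kb of its start, and need not cover the bases shown. That of Col8a2 (126287389 to 126288884) and that of Col17a1 (47691413 to 47691701) lie outside them. The promoters of these genes follow with the same marks.
Col8a2: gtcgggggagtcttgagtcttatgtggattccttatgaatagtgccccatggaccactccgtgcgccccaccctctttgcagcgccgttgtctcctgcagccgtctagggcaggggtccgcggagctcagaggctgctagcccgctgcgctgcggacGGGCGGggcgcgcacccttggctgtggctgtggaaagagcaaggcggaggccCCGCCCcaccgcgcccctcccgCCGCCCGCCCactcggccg
Col10a1: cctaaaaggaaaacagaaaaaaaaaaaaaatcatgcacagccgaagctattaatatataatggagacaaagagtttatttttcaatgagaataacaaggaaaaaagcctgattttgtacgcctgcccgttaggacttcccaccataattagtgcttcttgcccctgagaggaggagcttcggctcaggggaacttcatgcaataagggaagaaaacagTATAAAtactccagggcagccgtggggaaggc
Col25a1: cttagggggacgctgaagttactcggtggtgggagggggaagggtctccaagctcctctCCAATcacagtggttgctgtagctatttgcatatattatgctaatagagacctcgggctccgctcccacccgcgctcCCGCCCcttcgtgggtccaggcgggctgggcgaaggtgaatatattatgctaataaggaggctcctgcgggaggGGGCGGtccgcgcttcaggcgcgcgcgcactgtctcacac
Col17a1: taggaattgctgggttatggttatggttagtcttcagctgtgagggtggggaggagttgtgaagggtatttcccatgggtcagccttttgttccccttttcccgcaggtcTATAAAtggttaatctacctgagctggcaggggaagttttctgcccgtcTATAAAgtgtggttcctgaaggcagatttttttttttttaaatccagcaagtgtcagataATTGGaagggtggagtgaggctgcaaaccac
Their positions are chr4:126286544-126286793, chr10:34389731-34389980 and chr3:130180595-130180844 on the plus strand, and chr19:47692043-47692292 on the minus strand. The 250 bases of Col8a2 and Col25a1 held 24 and 18 CpG dinucleotides, and those of Col10a1 and Col17a1 held 5 and 2. A TATA motif was found once in Col10a1 and at 2 places in Col17a1. With the 50 bases after the start included, Col11a2 (1458 bp), Col13a1 (1007 bp) and Col3a1 (832 bp) also had one, at wider start-site intervals. None was found at the narrow ones of Col28a1 (121 bp), Col6a4 (304 bp), the second listed start of Col9a1 (444 bp) and Col4a6 (461 bp).

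Type IV genes lie head to head in pairs, and their sequences show how close the facing starts are. For Col4a1 and Col4a2, the 30 bases at chr8:11312801-11312830 are given on the plus strand, with the 22 bases from the Col4a2 start to the Col4a1 start in capitals. For Col4a4, the 71 bases between its start and the annotated edge of Col4a3 are given on the minus strand (chr1:82586850-82586920). None of the 3 motifs was found in these 71 bases. In both pairs the annotated gene bodies overlap, with gaps of -85 bp (Col4a1 and Col4a2) and -114 bp (Col4a4 and Col4a3). The 22 bases thus lie inside both genes, and the 71 bases inside the annotated Col4a4. Col4a5 (plus strand, chrX:141475169-141475418) and Col4a6 (minus strand, chrX:141474077-141474326) follow with the motifs in capitals.
Col4a1 and Col4a2: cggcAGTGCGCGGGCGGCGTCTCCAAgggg
Col4a4: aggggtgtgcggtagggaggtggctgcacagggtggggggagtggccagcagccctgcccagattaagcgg
Col4a5: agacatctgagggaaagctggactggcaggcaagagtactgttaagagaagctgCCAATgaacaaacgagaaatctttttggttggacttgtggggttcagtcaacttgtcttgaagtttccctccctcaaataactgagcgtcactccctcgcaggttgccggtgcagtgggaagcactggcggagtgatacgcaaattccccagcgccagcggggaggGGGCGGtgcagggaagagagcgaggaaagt
Col4a6: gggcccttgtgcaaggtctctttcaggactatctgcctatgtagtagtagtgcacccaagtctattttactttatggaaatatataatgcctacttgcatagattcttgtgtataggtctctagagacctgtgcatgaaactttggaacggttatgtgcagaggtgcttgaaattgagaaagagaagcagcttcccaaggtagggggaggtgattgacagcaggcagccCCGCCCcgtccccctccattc
Over the 38 promoters of 300 bases (250 before and 50 after the start), searched on both strands, a GC box was found in 60.5%, against 46.2% of the 21263 promoters of protein-coding genes. A CCAAT box was found in 34.2% of the collagen and 38.2% of all promoters, and a TATA motif in 13.2% and 12.6%. CAGCTG, a form of the E-box that myogenic factors bind, was found in 7 of the 38 (18.4%) against 15.6%, and the broader CANNTG, which includes CAGCTG, in 52.6% against 69.0%. TGANTCA, the AP-1 motif, was in 1 collagen promoter, that of Col6a1, against 6.99% of all. These letters are a description of the windows and not of binding.

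The 44 windows held 1476 distinct intervals, 0.456% of all, with 5 to 99 per gene. The median collagen gene had 22.4 intervals per 100 kb of window, against 18.2 over all protein-coding genes, whose quartiles were 9.17 and 25.4. Of the 44, 32 lay above the median of all genes, which by definition 50.0% of genes exceed, and 7 lay among the highest 10.0% of genes. With gene bodies alone, without the 20 kb on each side, that count was 2 (Col1a1 and Col5a1). Intervals covered a median of 10.6% of the window at collagen genes and 9.19% at all genes. No test was made, because genes of a joined interval set are not replicates. Of the 1476 intervals, 7.52% also overlapped the body of another protein-coding gene, and 46 counted for more than 1 collagen gene. The 20 kb limit did not fall on a change in density, with 98 intervals between 15 and 20 kb from the genes and 105 between 20 and 25 kb.

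Fibrillar genes spanned nearly the whole range of the family. Col5a1 and Col1a1 each had 44.0 intervals per 100 kb, and Col1a2 had 39.5. Col1a1 and Col1a2 encode the chains of type I collagen, the main protein of skin and bone, and Col5a1 encodes a chain of type V, which starts fibrils and sets their diameter. Col1a1 (chromosome 11, 94936224 to 94953042, gene ID 12842) held 25 intervals, which covered 23.4% of its window. Col1a2 (chromosome 6, 4505618 to 4541543, gene ID 12843) held 30 intervals covering 18.6%, and Col5a1 (chromosome 2, 27886381 to 28039510, gene ID 12831) held 85 covering 20.0%. By intervals per 100 kb, these 3 ranked above 98.3 to 99.4% of all protein-coding genes, and with gene bodies alone Col1a1 ranked at 95.4%, Col5a1 at 92.9% and Col1a2 at 84.1%.

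Most other fibrillar genes lay between the median and the upper quartile of all genes. Col11a2 had 25.1 intervals per 100 kb, Col2a1 24.6, Col3a1 24.3, Col27a1 23.6, Col24a1 22.0, Col5a2 21.3 and Col5a3 20.0. Col2a1 and Col11a2 encode cartilage chains, and Col3a1 the chain of type III fibrils in skin and vessels. Col3a1 held 19 intervals covering 9.63% of its window, close to the median of all genes. The chains of type V were thus unequal, with 44.0 for Col5a1 against 21.3 for Col5a2 and 20.0 for Col5a3.

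Col11a1 stood at the other end, with 5.65 intervals per 100 kb. This gene (chromosome 3, 114030479 to 114220756, gene ID 12814) encodes a type XI chain of cartilage fibrils. Its window held 13 intervals, and the longest stretch without any measured 76.6 kb. Yet its start site lay in an interval of 2601 bp, from 114030040 to 114032640. After that interval, the widest within the Col11a1 body measured 760 bp, centred 23096 bp from the start. The next intervals of Col11a1 by width were one of 602 bp beyond the gene and one of 288 bp within it.

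**Figure D1:**
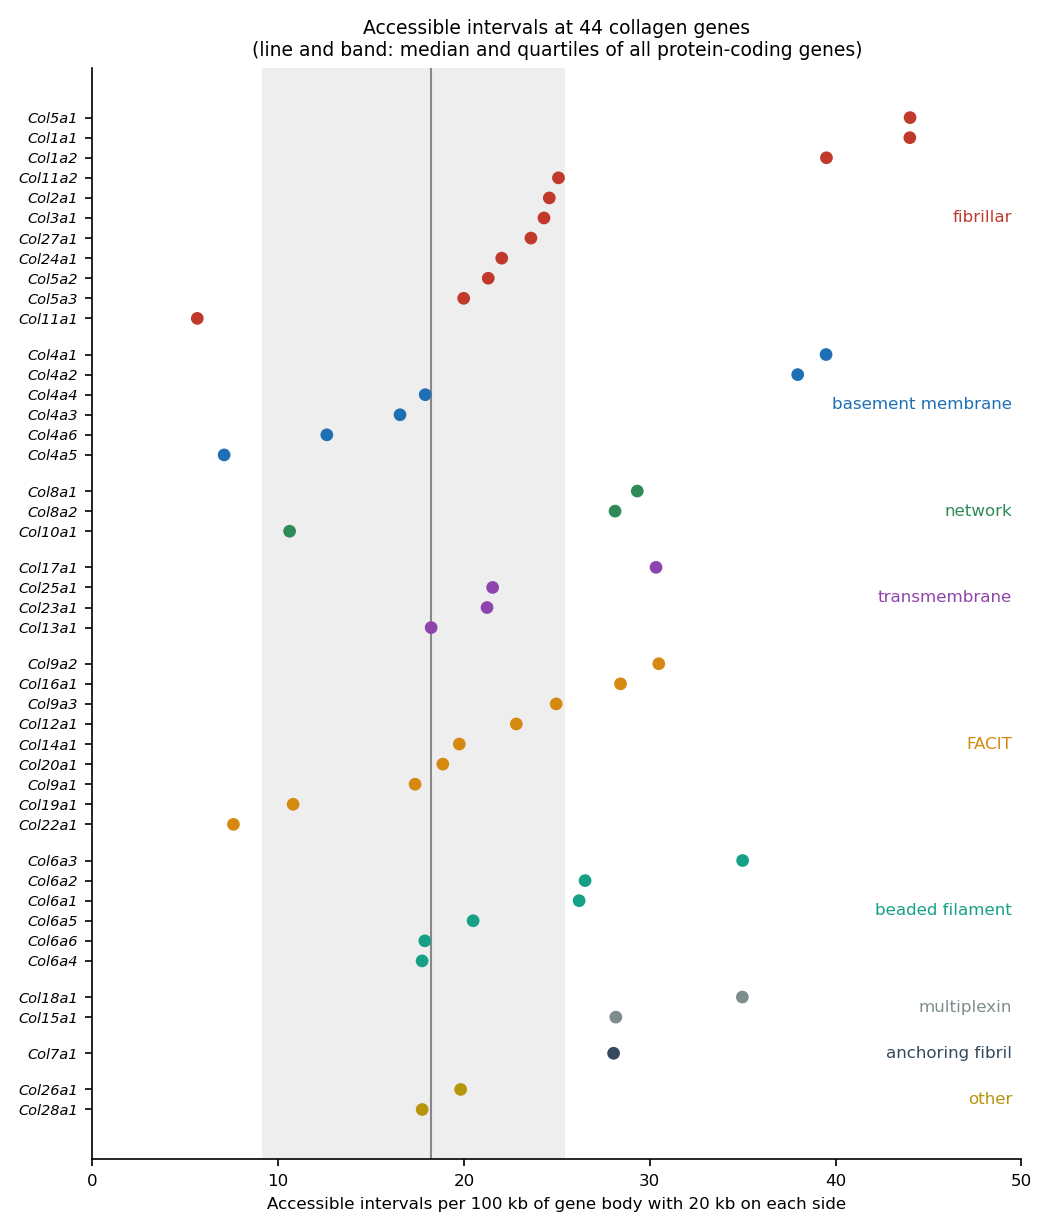
Intervals per 100 kb of window (horizontal axis) for each of the 44 collagen genes (1 point each), grouped by class, with the median (18.2) and the quartiles (9.17 and 25.4) of all protein-coding genes as a line and a band. Col5a1, Col1a1, Col1a2, Col4a1 and Col4a2 lie farthest to the right, and Col11a1, Col4a5 and Col22a1 farthest to the left.

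Of the 6 type IV genes, Col4a1 and Col4a2 stood apart from the others. Col4a1 and Col4a2, whose chains make the basement membrane of nearly all tissues, had 39.5 and 38.0 intervals per 100 kb, with 20.4% and 20.9% of their windows covered. Col4a3 and Col4a4, whose chains join in kidney and lung, had 16.6 and 17.9, covering 7.20% and 7.31%. Col4a5 and Col4a6 on the X chromosome had 7.09 and 12.6, covering 2.25% and 5.26%. Over all 966 protein-coding genes of the X chromosome the median was 7.30, so that Col4a5 was just below and Col4a6 above the level of their chromosome.

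The start regions of the pairs differed as well. Both the Col4a1 and the Col4a2 start lay inside an interval of 2547 bp (chromosome 8, 11311640 to 11314186). The Col4a4 start and the facing edge of Col4a3 lay inside an interval of 1100 bp (chromosome 1, 82586518 to 82587617). Col4a5 and Col4a6, whose starts are 1343 bp apart, had an interval each, of 1085 bp at Col4a5 (141475167 to 141476251) and of 461 bp at Col4a6 (141473647 to 141474107). Neighbouring windows overlap, and Col4a1 and Col4a2 shared 13 intervals, 21.3% of those of Col4a1 and 19.4% of those of Col4a2. Col4a4 and Col4a3 shared 10 (31.25% and 34.5%), and Col4a6 and Col4a5 shared 4 (9.09% and 22.2%). The longest stretch without an interval was 9.03 kb around Col4a1 and 75.7 kb around Col4a5.

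**Figure D2:**
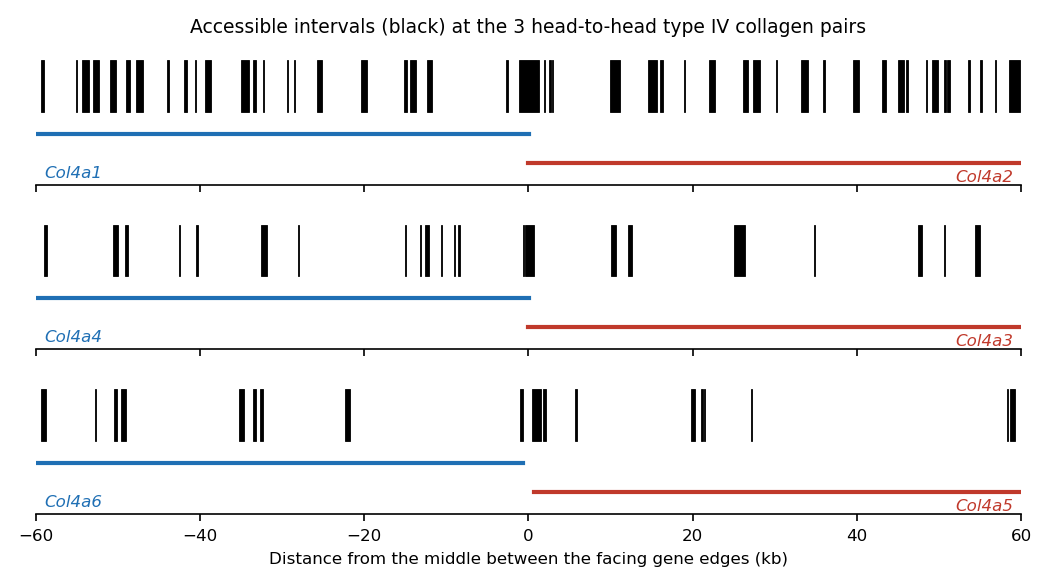
Intervals (black bars, drawn to scale) within 60 kb of the middle between the facing edges of the 3 type IV gene pairs, with the gene bodies as blue and red lines. The Col4a1 and Col4a2 pair is densest, with its 2547 bp interval over both starts, and the X-linked pair has separate intervals at Col4a5 and Col4a6.

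Among the network collagens, the type VIII genes had close densities and the type X gene a lower one. Col8a1 and Col8a2, which encode the lattice of the corneal and vascular basement layer, had 29.3 and 28.1 intervals per 100 kb, from 50 and 19 intervals. Col10a1 (chromosome 10, 34389981 to 34397085, gene ID 12813), the marker gene of hypertrophic cartilage cells, had 10.6. All 5 intervals of Col10a1 also lay in the body of Nt5dc1, the gene that surrounds it. They comprised 370 bp at the Col10a1 start, 171 and 895 bp before the gene and 162 and 96 bp beyond it. That of 895 bp, centred at -7459 bp from the start, was the widest.

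The transmembrane genes spanned a narrower range. Col17a1, a hemidesmosome component of skin epithelium, had 30.3 intervals per 100 kb, Col25a1, which is expressed in neurons and in muscle, had 21.5, Col23a1 had 21.2 and Col13a1, found at focal adhesions and the neuromuscular junction, had 18.2. Col25a1 is the longest collagen gene in the table, at 419.5 kb, and held the most intervals of the family, 99. Its start lay in an interval of 1872 bp. Col17a1 was dense but had its cover away from the start. The interval nearest to the Col17a1 start measured 289 bp and lay 341 bp from it, whereas one of 1888 bp (chromosome 19, 47658794 to 47660681) lay in the gene body, 32305 bp after the start. In Col17a1, intervals covered 10.0% of the part of the gene body nearest the start and 31.4% of the part nearest the end, when the body was cut into 3 equal parts.

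In the class medians, network genes had 28.1 intervals per 100 kb (3 genes, 10.6 to 29.3), fibrillar genes 24.3 (11 genes, 5.65 to 44.0), transmembrane genes 21.4 (4 genes, 18.2 to 30.3) and basement membrane genes 17.2 (6 genes, 7.09 to 39.5). The ranges of the 4 classes overlapped throughout. The order of the first 2 was not fixed: with 50 kb on each side the medians were 23.0 for network and 24.0 for fibrillar genes. Median cover, with 20 kb on each side, was 13.3% for network and 14.3% for fibrillar genes. Above the median of all genes lay 10 of 11 fibrillar, 4 of 4 transmembrane, 2 of 3 network and 2 of 6 basement membrane genes. Col13a1, at 18.23 against 18.20, was above it by a small margin only.

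The other classes also held dense and sparse members. Of the type VI genes, Col6a3 (35.0 intervals per 100 kb), Col6a2 (26.5) and Col6a1 (26.2) encode the chains found in most connective tissues, and Col6a5 (20.5), Col6a6 (17.9) and Col6a4 (17.7) encode alternative chains. Of the FACITs, Col9a2 (30.5) and Col16a1 (28.4) were highest, and Col22a1 (7.59), a gene of the muscle and tendon junction, and Col19a1 (10.8), which takes part in muscle differentiation, were lowest, with Col9a3 at 25.0, Col20a1 at 18.9 and Col9a1 at 17.4 between them. Col12a1 and Col14a1, whose products coat type I fibrils, had 22.8 and 19.8. The multiplexin genes Col18a1 and Col15a1, both of the basement membrane zone, had 35.0 and 28.2. Col7a1, which encodes the anchoring fibrils of skin, had 28.1, and Col26a1 and Col28a1 had 19.8 and 17.8.

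Length moved with these densities. Across the 44 genes, longer genes had fewer intervals per 100 kb (Spearman's rho -0.46, a description over genes that share a joined interval set), whereas over all protein-coding genes the coefficient was 0.15. Collagen genes under 30 kb had a median of 26.2 (9 genes, against 18.1 for all genes of that length), those of 30 to 100 kb 28.1 (9 genes, against 19.0), those of 100 to 200 kb 20.9 (18 genes, against 18.7) and those of 200 kb and longer 16.2 (8 genes, against 14.7). Of the 44, 30 lay above the median of genes 0.5 to 2 times as long as themselves. Col5a1 ranked above 99.6% of such genes, Col4a1 above 98.6% and Col11a1 above 7.86%.

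**Figure D3:**
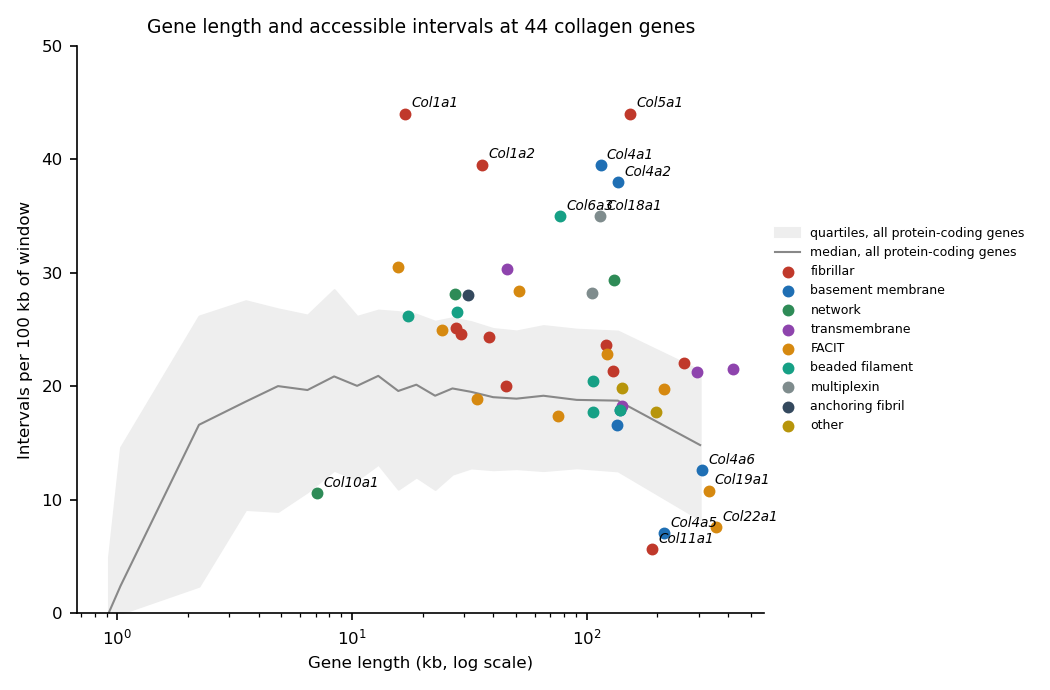
Gene length in kb (log scale) against intervals per 100 kb of window for the 44 collagen genes, coloured by class, with the median (line) and quartiles (band) of all protein-coding genes in 20 bins of length. Long genes appear both far above the band (Col5a1, 44.0) and below it (Col11a1, 5.65).

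Nearly all collagen genes had an accessible interval at the start. Within 1 kb of the start site, or of either gene end for the 9 genes with no start listed, 43 of 44 collagen genes had an interval (97.7%, exact 95% binomial interval 88.0 to 99.9%, counting only), against 72.7% of all protein-coding genes. The exception, Col22a1, is one of the 9, and its nearest interval lay 5982 bp from a gene end. An interval of at least 600 bp was present in 36 of 44, against 64.6% of all genes, and 38 had an interval spanning the site itself, against 64.7%. Collagen genes are long, with a median of 114.4 kb against 17.2 kb, and longer genes had such intervals more often. Within 1 kb, 9 of 9 collagen genes under 30 kb had one (all genes 65.0%), 9 of 9 of 30 to 100 kb (85.7%), 18 of 18 of 100 to 200 kb (91.3%) and 7 of 8 of 200 kb and longer (91.2%). The 9 genes are Col1a1, Col2a1, Col5a2, Col4a3, Col9a3, Col12a1, Col14a1, Col22a1 and Col26a1, for which an interval at the other end of the gene also counted.

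The width of the widest such interval varied strongly between members. This interval need not lie over the start. Examples are Col8a1 (57755181 to 57755999, start at 57754737) and Col8a2 (126287389 to 126288884, start at 126286794). All 11 fibrillar genes reached 600 bp, from 730 bp at Col5a3 and 832 bp at Col3a1 to 2311 bp at Col1a1 and 2601 bp at Col11a1, with a median of 1787 bp. Between them lay Col5a2 (1298 bp), Col1a2 (1315 bp), Col11a2 (1458 bp), Col2a1 (1787 bp), Col27a1 (1882 bp), Col24a1 (1908 bp) and Col5a1 (2052 bp). The medians were 1326 bp for transmembrane, 1100 bp for basement membrane and 819 bp for network genes. Over all protein-coding genes the median was 1025 bp with genes that have no such interval counted as 0, and 1261 bp among those that have one, which is above the basement membrane and network medians. Among the other classes the widest were those of Col14a1 (2519 bp), Col18a1 (1963 bp), Col26a1 (1819 bp), Col6a2 (1622 bp) and Col7a1 (1527 bp). The transmembrane genes Col23a1 and Col13a1 had 1644 and 1007 bp. Below 600 bp lay Col4a6 (461 bp), Col9a1 (444 bp), Col10a1 (370 bp), Col6a4 (304 bp), Col17a1 (289 bp), Col28a1 (121 bp) and Col12a1 (119 bp), besides Col22a1 with none. Alternative starts differed within a gene. At Col18a1, with separate promoters for its long and short forms, the start at 77166530 had an interval of 1963 bp and that at 77113705 one of 962 bp. At Col9a1, the start at 24177610 had its nearest interval 2379 bp away, and that at 24195203 had one of 444 bp beginning 441 bp from it.

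Promoter CpG content went along with this width. The 14 collagen start sites with 15 or more CpG dinucleotides in 300 bases had a median width of 1633 bp, the 16 with 5 to 14 had 1057 bp and the 8 with under 5 had 646.5 bp. Over all promoters of protein-coding genes these medians were 1372, 851 and 0 bp. Of the 8 collagen sites with few CpG, 7 had an interval (87.5%), against 28.9% of the 6035 such sites of all genes. These were Col3a1 (832 bp), Col6a1 (1339 bp), Col6a3 (1392 bp), Col20a1 (1115 bp), Col4a6 (461 bp), the second listed start of Col9a1 (444 bp) and Col28a1 (121 bp). Spearman's rho between CpG count and width was 0.58 over the 38 sites and 0.69 over all promoters, as a description. Col11a1 had 9 CpG and 2601 bp, against the median of 851 bp for promoters with 5 to 14.

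**Figure D4:**
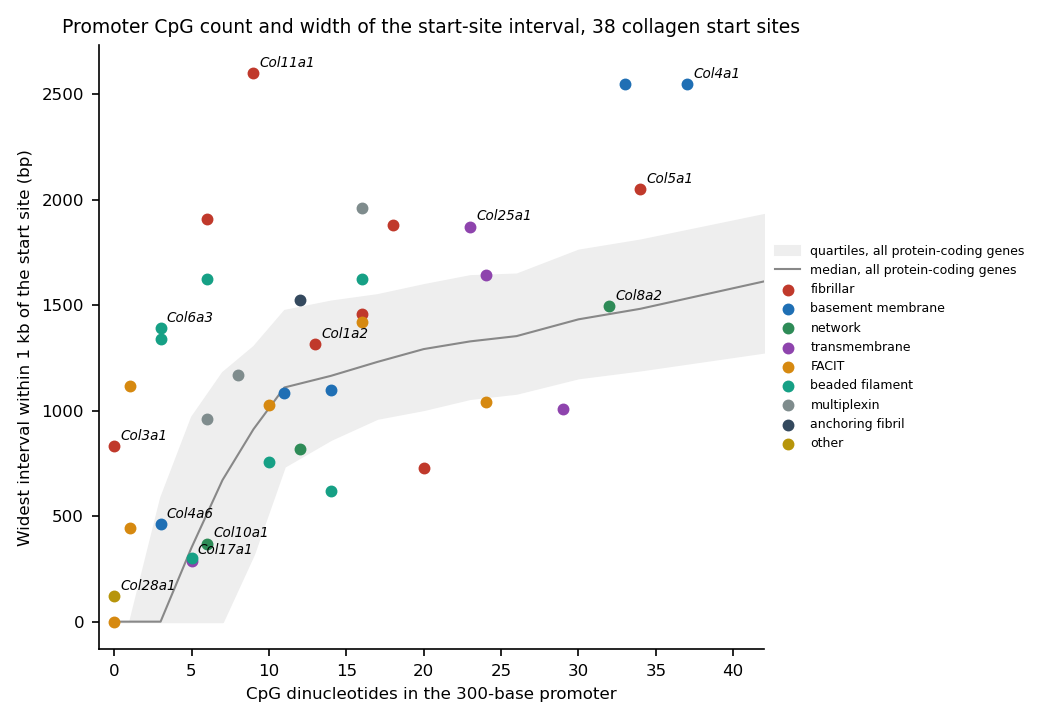
CpG dinucleotides in the 300-base promoter against the width in bp of the widest interval within 1 kb of the start, for 38 collagen start sites coloured by class, with the median (line) and quartiles (band) of all protein-coding promoters. Col4a1 with 37 CpG and 2547 bp is at the upper right, and the first listed start of Col9a1, with no CpG and no interval, at the lower left.

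At the 35 genes with a listed start, 886 of 1246 gene-interval pairs lay over the gene body more than 1 kb from a start. Their median width was 361.5 bp, against 1007 bp for the 47 at the start sites. For the 34 collagen genes of at least 15 kb with a listed start, cover was highest in the part of the body nearest the start, with medians of 15.1%, 8.43% and 9.86% over 3 equal parts from start to end. All such protein-coding genes had 11.0%, 5.99% and 6.07%. The part nearest the start was the most covered in 19 of 34 collagen genes (55.9%), against 54.7% of all. Among fibrillar genes it was 6 of 8, and the exceptions were Col1a2 (16.8%, 19.4% and 19.8%) and Col5a1 (22.9%, 15.9% and 25.0%), which were covered along their whole length. Col11a1 had 6.41%, 0.213% and 0%, and Col11a2 had 33.0%, 0% and 2.01%.

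**Figure D5:**
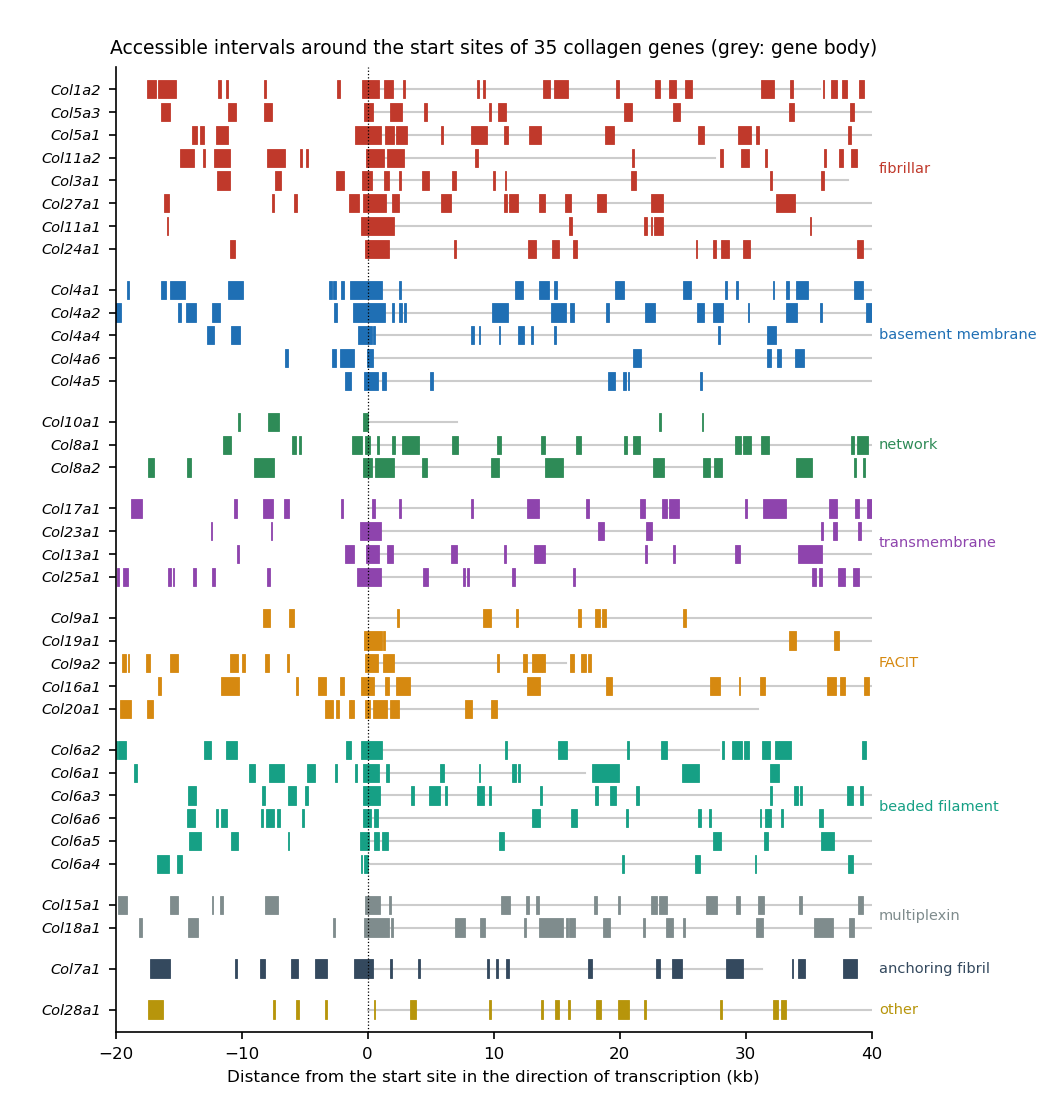
Intervals (bars, to scale) from 20 kb before to 40 kb after the start site of the 35 collagen genes with a listed start, in the direction of transcription, within each gene's window, with the gene body as a grey line. A wide bar covers the start of most genes, and the body of Col1a2 holds many more bars than that of Col11a1 or Col10a1.

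Intervals before and after the genes had median widths of 358.5 and 393 bp, against 1007 bp at start sites. Single ones among them were as wide as those at starts, and some wide or nearby ones are named here. Before Col1a2, where an enhancer active in fibroblasts is known far upstream in mice, an interval of 1469 bp (4488984 to 4490452) was centred at -15900 bp from the start, and one of 717 bp (4488114 to 4488830) lay next to it. It was wider than the 1315 bp interval at the Col1a2 start. Before Col3a1, intervals of 647 and 992 bp were centred at -2150 and -11418 bp from the start. Before Col8a2, one of 1567 bp (126277785 to 126279351) was centred at -8226 bp. Beyond the end of Col6a1, one of 2172 bp (chromosome 10, 76706091 to 76708262) was wider than the 1339 bp at its start. Others stood at a neighbour's start site, among them one of 2040 bp near Col23a1 at Phykpl and one of 1888 bp near Col18a1 at Slc19a1.

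Collagen genes also lie near one another outside type IV, and their windows then hold the same intervals. Col3a1 and Col5a2, 24624 bp apart, shared 6 intervals, 31.6% of those of Col3a1 and 16.7% of those of Col5a2. Col9a1 and Col19a1, 4944 bp apart, shared 4 (20.0% and 10.0%). The type VI genes Col6a6 and Col6a5 shared 5 (15.6% and 16.7%) and Col6a5 and Col6a4 shared 4 (13.3% and 15.4%), whereas Col6a2 and Col6a1, 85161 bp apart, shared none. Densities of such neighbours are therefore not independent of each other.

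Genes that modify, process, assemble, degrade or bind collagen were set beside the family. Of 60 such genes, 54 had an interval within 1 kb of a start site or, where none is listed, of either gene end (90%). The share over all genes was 72.7%. Among those with a listed start it was 38 of 42, against 71.6% of all genes with a listed start. Of the 60, 46 lay above the median of all genes in intervals per 100 kb, against 50.0% of all genes. The median of the 60 was 25.2 intervals per 100 kb. By role, a start-site interval was found at 12 of 14 genes listed under prolyl and lysyl hydroxylation, Colgalt1 and Colgalt2 among them. The counts were 8 of 8 for folding and secretion, 8 of 8 for propeptide processing and 4 of 5 for cross-linking. For fibril assembly they were 8 of 8, for breakdown 7 of 8 and for receptors 7 of 9. In density, P3h4 (36.8) and P3h1 (28.5) led the hydroxylation list, and Ppib (36.6) and the collagen chaperone gene Serpinh1 (35.5) that of folding. Among processing genes, Bmp1 (34.8), which cleaves the carboxyl propeptide, and Adamts14 (29.2) led. Loxl1 (35.1) and Loxl3 (34.3) led cross-linking, Fn1 (52.9), which encodes fibronectin, and Sparc (37.9) fibril assembly, Mmp8 (33.96) and Mmp14 (33.4) breakdown, and the discoidin receptor genes Ddr2 (30.2) and Ddr1 (30.1) the receptors. No start-site interval was found at the platelet and leukocyte receptor genes Gp6 and Lair1, the neutrophil collagenase gene Mmp8, Plod2, Loxl2 and P4hb. Of these, Mmp8, Plod2, Lair1 and Loxl2 held 17, 22, 8 and 7 intervals elsewhere in their windows. Plod2 and Loxl2 have no listed start and missed the limit by little, at 1025 and 1022 bp from a gene end. The table used here lists no interval in the windows of P4hb and Gp6, and whether it is complete there could not be checked, so that their zeros are not read as closed sites. Other protein-coding genes with no interval in their window were counted in the shares, medians and ranks over all genes. Completeness could not be checked for them either, and no collagen gene had fewer than 5 intervals.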

How the data were processed

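ATAC-seq libraries were amplified for 12 cycles, per the labels' protocols. Per the submitters' processing notes, the tools include BWA, MACS2 and DESeq2 (no version or role is named) and the build is GRCm38.p6; HOMER's annotatePeaks was run on consensus peaks with GENCODE vM23, per the file headers. The sources used here give no settings for calling or joining peaks. The deposited peak score is 0 throughout and was not used, so that positions alone were analysed.

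Gene extents and start sites came from RefSeq tables of GRCm38.p6. Intervals counted with an overlap of at least 1 bp. Ranks, shares and medians were computed over all 21887 protein-coding genes on chromosomes 1 to 19, X and Y, with pandas 2.3.3 and numpy 2.4.6 under Python 3.11.15 (binomial intervals by scipy 1.17.1, plots by matplotlib 3.10.9). Counting was tested on simulated data. A wide interval can be several merged peaks, and width is no signal level.

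Members, classes and lists were chosen with earlier results of these data known. Every member of the 4 main classes is named with its values, and of the other classes at least the 2 with the most and the 2 with the fewest intervals per 100 kb. Of the pathway lists, the 2 densest genes and those without a start-site interval are named. Promoters shown were chosen as the widest start-site interval of a class or, for type IV, as gene pairs, and Col1a2, Col3a1, Col10a1 and Col17a1 were added after their values were seen. The ranks by length, the CpG counts and the 3 parts of the gene body were also added then.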

Additional observations from a re-analysis of the deposited data

How the results depend on the processing

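No paired analysis was possible because the table names no library, and fits with a replicate block or without a replicate were not run for the same reason. Under 10 alternatives (flanks of 0, 5 and 50 kb, interval midpoints, minimum widths of 300 and 600 bp, windows without other genes, and start sites within 250 bp, within 5 kb or at either gene end), 37 of 38 recomputed summaries stayed within 1.5 times their value. The exception was the count of collagen genes in the highest 10.0%, which was 2 with gene bodies alone against 7, and 5 to 10 under the other alternatives. The limit of 1.5 times is wide. The median rank of the collagen genes could fall below the middle of all genes and stay within it. The median rank of the 44 genes among all protein-coding genes, 65.0% in the report's setting, ranged from 59.7% with gene bodies alone to 67.5% with intervals of at least 600 bp. Of the 44, 30 to 34 lay above the median of all genes. An interval at the start site was found in 40 of 44 within 250 bp, where Col17a1, Col28a1 and Col9a1 joined Col22a1. Over all protein-coding genes the share within 250 bp was 68.2%. With intervals of at least 600 bp it was found in 36 of 44, against 64.6% of all genes. Ranks near the top cannot rise by 1.5 times but can fall by it. With gene bodies alone Col4a1 ranked at 87.2%, Col4a2 at 87.4%, Col6a3 at 86.8%, Col1a2 at 84.1% and Col18a1 at 82.7%. Lower in the list, 5 genes moved by more than 1.5 times. They were Col11a2 and Col6a2 with gene bodies alone (to 48.5% for Col6a2 and lower for Col11a2). With intervals of at least 600 bp they were Col12a1 (43.1%), Col5a2 (32.7%) and Col9a1 (23.2%). Col10a1 has no value in windows without other genes. Since depth is unknown, an absent interval is not shown to be closed chromatin.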
